A study of Triticum aestivum with 24 samples.

Results

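The genes at the distal chromosome ends of bread wheat were examined in leaf RNA-seq libraries of heat-stressed and control plants. The chromosome (1A to 7D) and a running number were read from each gene ID, all genes of a chromosome were ranked by that number, and the first and last 10% of ranks were taken as its ends. This gave 21588 genes at 42 ends, 10794 at each side, of 110790 genes in the table. The remaining 86473 ranked genes are called interior, and 2729 genes whose IDs carry no chromosome were left out of both. The number follows gene order and not distance in bases, and which arm comes first is not stated in the ID. All plants were cultivar Chinese Spring and descended from the selfing of 1 individual. They grew at 18 °C by day (16 h) and 16 °C by night (8 h). At boot stage the heat group spent 5 days at 37 °C with ample water and then returned to the regime of the control group. Leaves were taken when the stress ended (0 days after treatment, DAT) and 1 and 4 days later, and the 6 groups of treatment and day had 4 libraries each. Each library, by its replicate number, stands for a pool of 18 plants, so differences between single plants cannot be seen. A Rubisco small chain gene (TraesCS5B01G162800), a defining transcript of green leaf tissue, had 957 to 10302 CPM over the 24 libraries.

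Bread wheat carries the subgenomes A, B and D, and most genes have a near-identical copy on each. In cereals the distal parts of the chromosomes recombine most often and are rich in duplicated, fast-changing families such as immune receptors, receptor kinases and F-box genes. The interior around the centromere recombines rarely and holds a larger part of the broadly used housekeeping genes. In bulk leaf RNA, fewer cells of a type and less RNA per cell cannot be told apart.

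Gene descriptions were available only for targets of microRNAs that the study had found in degradome libraries of this experiment, a selected set that is not independent evidence of any direction. They covered 119 genes at the ends, of which 66 passed the count filter and were tested. Among them were 5 tested genes of the Scarecrow family, plant-specific GRAS transcription factors, with a site for miR171. Their sites are shown because the copies differ there and because 2 of them fell in heat. They were taken from the tables of the study, are written 5′ to 3′ as DNA, and no genome position is given for them. Capitals in the microRNA mark its seed (bases 2 to 8).
miR171-2-3p: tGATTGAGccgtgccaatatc
Capitals in the sites mark each base that differs from the perfect complement of the microRNA.
Site in TraesCS4B01G367300 (4B): gatattggcacggctcaatca
Site in TraesCS4D01G360200 (4D): gatattggcacggctcaatca
Site in TraesCS5A01G535000 (5A): gatattggcacggctcaatca
Site in TraesCS4A01G482000 (4A): gatattggcGcggctcaatca
Site in TraesCS7D01G011400 (7D): gatattggcGcggctcaatca
The sites of 3 copies were perfect complements, and the copies at the last end of 4A and the first end of 7D shared 1 differing base. Genes for GRAS factors in the interior of 6A, 6B and 6D (TraesCS6A01G247200, TraesCS6B01G277400 and TraesCS6D01G229400) held the same site as the latter pair. The second family at the ends was that of the mitochondrial transcription termination factors (mTERF), nuclear-encoded proteins that act on gene expression in mitochondria and chloroplasts. Their sites for miR9662 differed more from the microRNA, as the pair of tested copies shows.
miR9662-1.1-3p: tTGAACATcccagagccaccg
Site in TraesCS6A01G021400 (6A): TCgtggctcGgggatgttcaG
Site in TraesCS6B01G029100 (6B): TCgtggctcGgggatgttcaG
Each of these sites had 4 differing bases, at the same places in both copies.

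Fewer genes were expressed at the ends than in the interior. A count of 0 in all 24 libraries was found for 7525 genes at the ends (34.9%) and for 18935 interior genes (21.9%). The count filter was passed by 7205 genes at the ends (33.4%), against 39577 in the interior (45.8%) and 42.9% of all genes. The other 14383 genes at the ends were not tested. Detection was graded along the chromosome. In bands of 2% of ranks, 32.0% to 35.1% of genes were tested within the ends, 35.6% in the next band inward and 53.1% in the band at mid-chromosome. The tested genes also differed somewhat in level. Their median was 3.92 CPM at the ends, with quartiles of 1.59 and 10.3 CPM, and 4.49 CPM in the interior, with quartiles of 1.80 and 11.3 CPM. CPM is not corrected for transcript length, and lengths were not used here, so part of such a difference in level may lie in length, which was not tested. A mean of at least 10 CPM was reached by 8.54% of genes at the ends and 12.8% in the interior. Genes of 1 end are neighbours and often copies of each other, so they are no replicates, and no test was made between ends and interior.

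**Figure D1:**
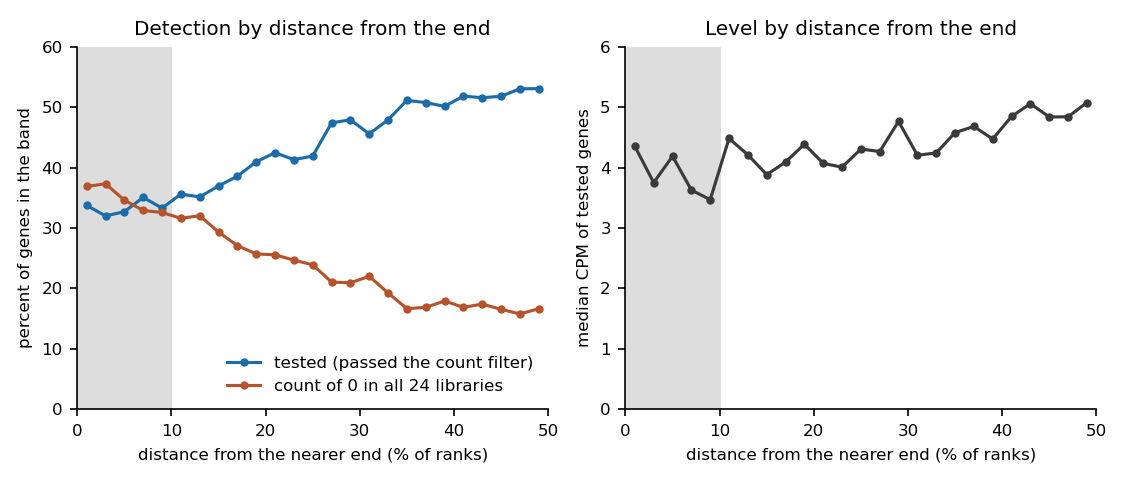
Detection and level by distance from the nearer chromosome end, in bands of 2% of ranks over all 21 chromosomes, with the ends shaded. The left panel gives the percent of genes that were tested (blue) and that had no count in any library (brown); the right panel gives the median CPM of the tested genes. The tested share rises from 33.8% in the outermost band to 53.1% at mid-chromosome.

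The lower share of tested genes at the ends was seen on all 21 chromosomes and in each subgenome. It was 32.0% at the ends against 45.3% in the interior of A, 31.7% against 45.3% in B and 36.6% against 46.7% in D. Among the 42 ends the first end of 4D had the highest share, with 47.8% of 366 genes. The last end of 7A stood apart from the other 41. Only 21 of its 570 genes (3.68%) were tested, while the other 41 ends had 108 to 233 tested genes and shares of 22.7% to 47.8%. A count of 0 in every library was found for 394 of these 570 genes, and 0 genes had a mean of 10 CPM or more. The matching ends of 7B and 7D had 35 and 60 such genes. Summed over the end, the level was 43.5 to 66.1 CPM in the 24 libraries on 7A, 1140 to 1815 CPM on 7B and 2099 to 3173 CPM on 7D. The ranges on 7A and its counterparts did not overlap in any group, control or heat. The change along 7A was abrupt. In the neighbouring 10% of ranks 33.3% of genes were tested, close to the 33.5% of the same stretch of 7D. Of the 100 genes up to the fifth gene of this end, 39 were tested and 11 had 10 CPM or more. Of the 565 genes beyond that gene, 18 were tested, and the highest mean was 9.03 CPM. This boundary was chosen after the values were seen. The 21 tested genes had a median of 1.47 CPM, and 14 of them had non-whole values in over 50% of their entries, which is how reads divided among similar transcripts appear. Whether the sequence of this end is missing from these plants, silent in leaf, or not matched by reads was not tested. Without this end the tested share of the ends was 34.2%.

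**Figure D2:**
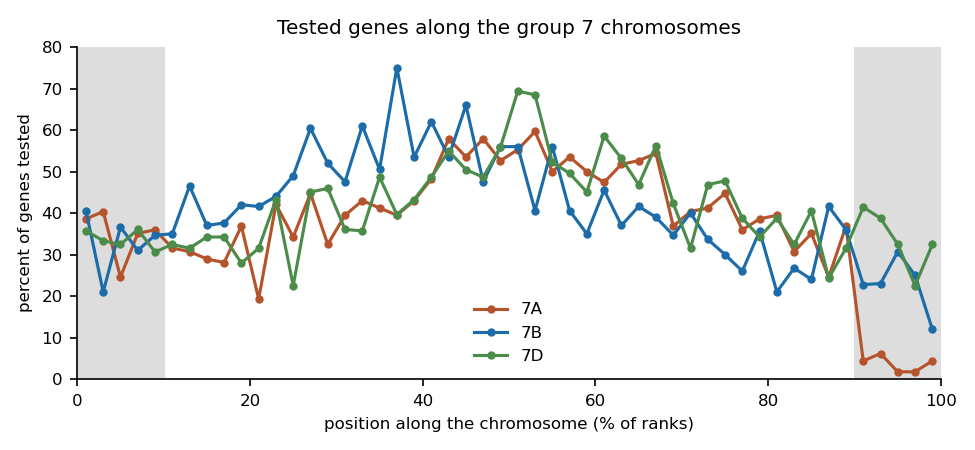
Percent of genes tested along chromosomes 7A, 7B and 7D, in 50 bins of 2% of ranks each, with the first and last 10% shaded. The last 5 bins of 7A lie at 1.75% to 6.14%, while the bin before them has 36.8%.

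By fixed cuts, genes at the ends were also detected less broadly over the leaf libraries. Their level was lower and so nearer to such cuts, and breadth was not compared at equal level. At least 1 CPM in the mean of at least 1 group was reached by 7206 genes at the ends, and 5272 of these (73.2%) reached it in all 6 groups, against 77.8% in the interior. With all libraries thinned to the smallest total count (5403461), 40.5% to 46.2% of genes at the ends had a count in a library, against 53.8% to 61.0% of interior genes. Before thinning the ranges were 42.1% to 51.6% and 55.0% to 66.4%. At 0 DAT the 4 heat libraries had 44.7% to 46.2% of end genes detected at an equal total count and the 4 control libraries 41.9% to 44.1%, ranges that did not overlap (mean difference 2.40 percentage points). Relative to the interior the order was the opposite, as the ratio of the ends' share to the interior's share was 0.752 to 0.765 in heat and 0.766 to 0.775 in control. Both differences had p = 0.0286 by a two-sided exact permutation test of 4 against 4 libraries, the smallest p this design can give. Adjusted over the 9 tests of this kind (3 measures on 3 days) p was 0.0858 for each, so neither passed. Thinning made only the totals equal. The TMM factors were 1.24 to 1.56 in heat and 0.793 to 1.02 in control at 0 DAT, so the depth left for a typical gene differed between these groups, and its part in the difference was not tested. At 1 and 4 DAT the heat and control ranges overlapped for both measures.

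In 20 of the 24 libraries the ends held 11.6% to 13.4% of all counts. In the other 4 they held 14.96% to 18.1%. These were heat 1 DAT replicate 3, control 4 DAT replicate 2 and heat 4 DAT replicates 2 and 4, and in each the excess was nearly all in the first-ranked gene of 1A (TraesCS1A01G000100), which has no description here. It had 100000 CPM in heat 1 DAT replicate 3 and 127, 313 and 437 CPM in the other 3 libraries of that group. In the control libraries of 1 DAT it had 215 to 358 CPM, and at 0 DAT 180 to 315 CPM in all 8 libraries. At 4 DAT it had 40400 CPM in control replicate 2, 6710, 51500 and 50700 CPM in heat replicates 1, 2 and 4, and 222 to 285 CPM in the rest. Its fitted difference at 1 DAT (log2 fold change 6.46 ± 2.01 SE, edgeR adjusted p = 0.026) rested on heat replicate 3, without which adjusted p was 0.99. Adjusted p was 0.051 to 0.068 without any 1 of the 4 control libraries of 1 DAT, and 0.1 with the replicate number as a block. In the same 4 libraries the genes without a chromosome held 6.49% to 11.7% of counts, against 1.26% to 2.34% in the other 20. The second gene of 1A (TraesCS1A01G000200) moved with it, at 0.744% to 1.502% of counts in the 4 libraries and at most 0.149% in the others. What these reads are was not tested. Without TraesCS1A01G000100 the ends held 11.6% to 13.4% in all 24 libraries. On that measure heat at 0 DAT (13.2% ± 0.162, SD, n = 4) lay above control (12.7% ± 0.286, n = 4), with ranges that did not overlap (exact permutation p = 0.0286, adjusted 0.0858). The most abundant gene at the ends, TraesCS5D01G010200, was singled out after its values were seen and has no description. It had 21000, 24900, 41900 and 23100 CPM in control against 6950, 17500, 15300 and 14800 CPM in heat at 0 DAT. Its log2 fold change of -1.02 ± 0.48 did not pass (edgeR adjusted p = 0.1).

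**Figure D3:**
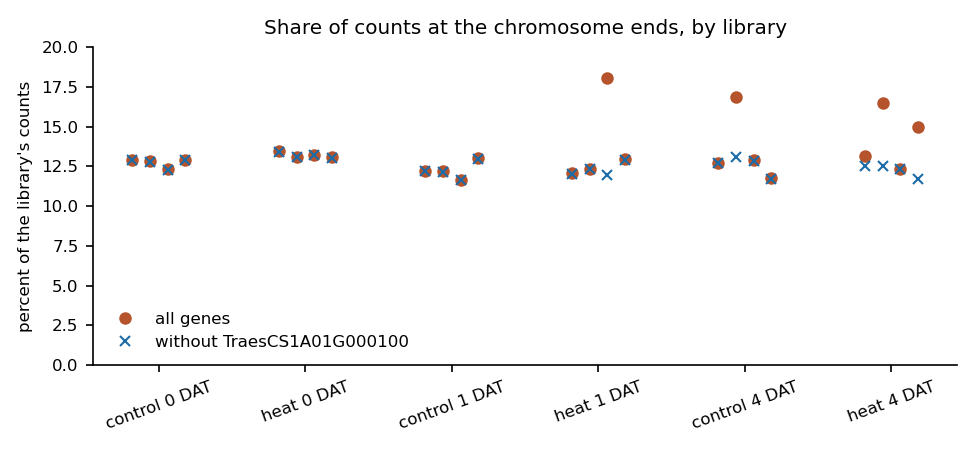
Share of each library's counts that fell on genes at the chromosome ends, for 4 libraries per group in the order of their replicate numbers. Circles include all genes and crosses leave out TraesCS1A01G000100. The circles of 4 libraries lie at 14.96% to 18.1%, and every cross lies at 11.6% to 13.4%.

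Directly after the heat stress, genes at the ends were called lower more often than they were called higher. At 0 DAT 1493 of 7205 tested genes (20.7%) were lower in heat and 1086 (15.1%) were higher, by edgeR's quasi-likelihood test at an adjusted p under 0.05. Over all 47489 tested genes 18.0% were lower and 16.8% higher, and in the interior 17.4% and 17.2%. Among genes without a chromosome 21.1% were lower and 12.9% higher. The median log2 fold change was -0.03 at the ends, 0.04 in the interior and 0.03 over all genes. The split was alike at both sides, with 754 lower and 559 higher genes at the first ends and 739 and 527 at the last ends. In the 5 bands of the ends the share called lower was 20.03% to 21.7%, with the highest value in the second band, and the share called higher was 13.0% to 16.2%. In the interior the bands had 15.3% to 20.4% called lower, the highest at 18% to 20% of ranks, so single bands overlapped. Of the 42 ends 36 had more lower than higher calls, 5 had more higher calls (the last ends of 1A and 4D and the first ends of 4A, 4D and 7B), and the last end of 7A had 3 of each. On 18 of 21 chromosomes the share called lower was above that of the interior of the same chromosome. Scaled to total counts, which moved the median of all genes by 0.52 on the log2 scale, 606 genes at the ends were lower and 2168 higher. The share called lower was then 8.41% at the ends and 5.57% in the interior. All directions below are on the TMM scale.

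Large falls were the clearest difference between ends and interior at 0 DAT. Among genes at the ends 376 (5.22%) were called and at least 4-fold lower in heat, against 2.30% in the interior and 2.81% of all tested genes. On each of the 21 chromosomes this share was higher at the ends than in the interior. It was not particular to the ends. Genes without a chromosome had 7.21% (of 707 tested), and the interior band next to the ends (10% to 12% of ranks) had 3.90%. For rises of at least 4-fold the shares were 2.68% at the ends, 2.78% in the interior and 2.76% of all tested genes. Since genes at the ends had a lower level, the tested genes were divided into 5 equal groups by mean CPM. The share called lower was 11.3% at the ends and 7.30% in the interior in the group of the lowest level (0.249 to 1.45 CPM). It was 16.2% and 10.1% in the next, 18.4% and 14.9% in the middle group, 23.8% and 21.1% in the fourth and 36.8% and 32.9% in the group of the highest level. The share that was at least 4-fold lower was also higher at the ends in each of the 5 groups, with 6.44% against 3.29% at the lowest level and 5.90% against 2.503% at the highest. The fitted spread moved with it a little. It is the square root of edgeR's gene-wise dispersion over all 6 groups, which leaves out counting error. Its median was 31.6% at the ends and 31.0% in the interior at the lowest level, and 18.5% and 18.2% at the highest.

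**Figure D4:**
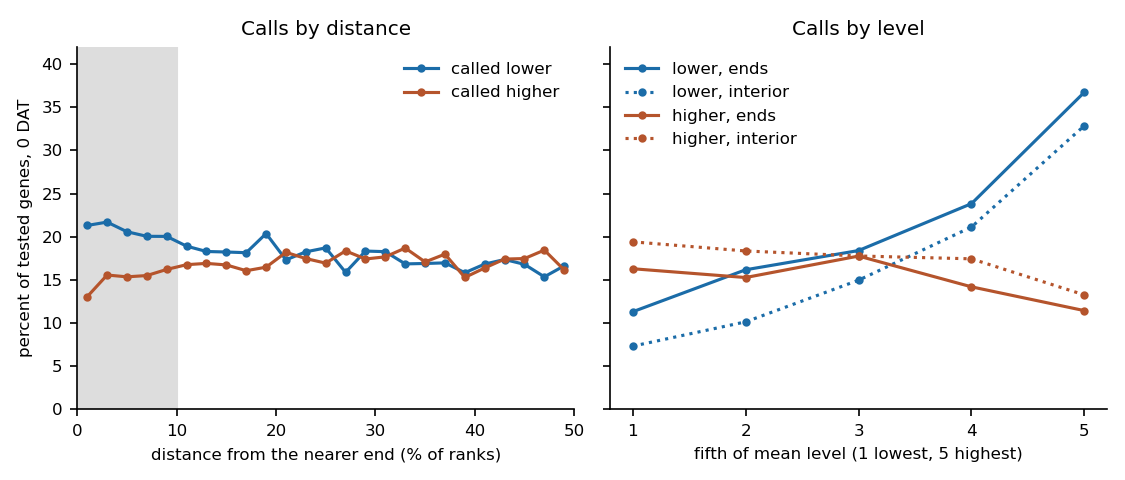
Percent of tested genes called lower (blue) and higher (brown) in heat at 0 DAT. The left panel is by distance from the nearer end in bands of 2% of ranks, with the ends shaded; the right panel is by 5 equal groups of mean CPM, for the ends (solid) and the interior (dotted). The blue solid line lies above the blue dotted line in each group, from 11.3% against 7.30% to 36.8% against 32.9%.

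Of the 66 tested genes at the ends with a description, 11 were lower and 11 higher at 0 DAT, beside 18.0% lower and 16.8% higher of all tested genes. Methionine S-methyltransferase on 1B (TraesCS1B01G017800), which makes S-methylmethionine, a transport form of sulfur, had 113, 92, 77.5 and 111 CPM in the control libraries. In heat it had 31.6, 41, 46.5 and 33.3 CPM, every library below every control (log2 fold change -1.37 ± 0.21 SE, edgeR adjusted p = 2.2e-05). A pair of PAP fibrillin genes, whose proteins coat lipid droplets in chloroplasts, fell alike. The 3A copy (TraesCS3A01G024200) had 45.7, 41.9, 53 and 44.6 CPM in control against 21.4, 27.8, 26.3 and 23.8 CPM in heat (-0.90 ± 0.14, edgeR adjusted p = 3.9e-05). The 3D copy (TraesCS3D01G022000) had 43.1 to 57.9 CPM in control against 25.1 to 27.9 CPM in heat (-0.91 ± 0.17, edgeR adjusted p = 0.00031, and 0.058 when scaled to total counts). All their entries and those of the methyltransferase were non-whole, so reads were shared with similar transcripts and the values of single copies are uncertain. The same limit holds for the nitrate reductase and enolase genes that follow. It also holds for TraesCS3B01G568500, TraesCS5A01G024600, TraesCS2B01G585200 and TraesCS4B01G020300 further below. To a lesser degree it holds for other genes below. Of their values above 0, 95.8% (TraesCS5B01G040600), 93.8% (TraesCS2A01G035000), 91.7% (TraesCS5B01G044900) and 91.3% (TraesCS4A01G044400) were not whole. The share was 91.7% in TraesCS6D01G023400, 79.2% in TraesCS3D01G505800, 70.8% in TraesCS5B01G048900, 66.7% in TraesCS6A01G021400 and 56.5% in TraesCS5A01G029900. Nitrate reductase on 6B (TraesCS6B01G024900), which carries out the first step of nitrate assimilation, had 186 ± 57.1 CPM in control against 111 ± 20.4 CPM in heat (SD, n = 4). Its groups overlapped, its log2 fold change was -0.75 ± 0.24 (edgeR adjusted p = 0.019), and the call was lost without control replicate 1 (0.087), control replicate 4 (0.059) or heat replicate 1 (0.068), and when scaled to total counts (-0.27, adjusted p = 0.52). The glycolytic enzyme enolase on 5D (TraesCS5D01G019800) had 103 to 105 CPM in control against 66.8 to 85.5 CPM in heat (-0.44 ± 0.16, edgeR adjusted p = 0.04). That call ended without any 1 library other than heat replicate 2 (0.063 to 0.11), and the sign turned when scaled to total counts (0.07).

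Receptor-like and other protein kinases, which relay signals from the cell surface, had calls in both directions. Of 9 tested at the ends 3 fell and 2 rose at 0 DAT, and of 17 in the interior 3 fell and 3 rose, beside 18.0% lower and 16.8% higher of all tested genes. The strongest call was a receptor kinase-related gene on 2B (TraesCS2B01G007400) with 7.38, 8.02, 5.23 and 7.34 CPM in control against 1.4, 3.21, 2 and 1.96 CPM in heat (-1.71 ± 0.22, edgeR adjusted p = 2.6e-06). Larger fold changes at lower levels were found for a receptor-like kinase on 3B (TraesCS3B01G024300, -2.32 ± 0.54, edgeR adjusted p = 0.0021) and a putative kinase on 3D (TraesCS3D01G002200, -2.29 ± 0.60, edgeR adjusted p = 0.0048). They went from 1.42 ± 0.426 to 0.261 ± 0.193 CPM and from 2.93 ± 0.931 to 0.589 ± 0.373 CPM. The receptor-like kinase near the very end of 2D (TraesCS2D01G599800), at rank 5998 of 6018, had 2.12 to 6.27 CPM in control against 7.05 to 12.9 CPM in heat (1.22 ± 0.36, edgeR adjusted p = 0.011). Another on 1B (TraesCS1B01G451600, 0.85 ± 0.32, edgeR adjusted p = 0.046) lost its call on leaving out heat replicate 1 (0.059), 3 (0.14) or 4 (0.059) or control replicate 3 (0.12) or 4 (0.13).

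In the Scarecrow family 2 of 5 tested genes at the ends fell and 3 did not pass, beside 18.0% lower of all tested genes. The 2 were those whose miR171 site has the differing base. The 7D copy (TraesCS7D01G011400) had 4.45, 3.23, 4.66 and 3.31 CPM in control against 1.88, 1.13, 2.19 and 2.06 CPM in heat (-1.12 ± 0.25, edgeR adjusted p = 0.0011, and 0.15 when scaled to total counts). The 4A copy (TraesCS4A01G482000) had 6.03, 2.95, 5.07 and 6.51 CPM in control against 2.89, 3.02, 3.73 and 1.77 CPM in heat. Its groups overlapped (-0.84 ± 0.28, edgeR adjusted p = 0.022), and the call ended on leaving out heat replicate 4 (0.079) or control replicate 1 (0.068) or 4 (0.073) and when scaled to total counts (0.46). The copies with a perfectly matched site had log2 fold changes of 0.37 ± 0.42 (4B), -0.55 ± 0.33 (4D) and 0.42 ± 0.43 (5A), with edgeR adjusted p of 0.53, 0.21 and 0.48. They were less abundant, at means of 1.09 to 1.80 CPM over all libraries against 2.94 and 4.03 CPM, which leaves wider errors. More of their values above 0 were also not whole, with 79.2% in the 4B copy and 79.2% in the 5A copy. The share was 20.8% in the 4A copy and 33.3% in the 7D copy, and the 4D copy lay between these pairs. The values of the copies with a perfectly matched site are therefore also less certain as values of single copies. The 3 interior genes with the same site as the pair that fell had 0.25 (TraesCS6A01G247200), 0.56 (TraesCS6B01G277400) and -0.09 (TraesCS6D01G229400) at 0 DAT. Whether the kinds of copy differ in response was not tested, and neither was a part of the microRNA in it. The other annotated gene among the 10 lowest was ROOT PRIMORDIUM DEFECTIVE 1 on 5B (TraesCS5B01G040600), named in Arabidopsis for a root phenotype. It had 5.28 ± 1.01 CPM in control against 3.58 ± 0.184 CPM in heat (-0.56 ± 0.19, edgeR adjusted p = 0.022). It was no call on leaving out heat replicate 3 (0.052) or 4 (0.054) or control replicate 1 (0.057), 2 (0.06) or 3 (0.077), and when scaled to total counts (0.91).

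Among the described genes that rose at 0 DAT, an RNA helicase and an immune receptor had the clearest separation. The ATP-dependent RNA helicase on 3B (TraesCS3B01G568500) had 11.8, 11.8, 13.2 and 12.8 CPM in control against 21.6, 38, 34.9 and 30.3 CPM in heat (log2 fold change 1.33 ± 0.16, edgeR adjusted p = 1.8e-06). All its entries were non-whole, so its own level is uncertain. An NBS-LRR-like resistance gene on 3B (TraesCS3B01G554500), of the class of intracellular immune receptors, had 0.397, 0.461, 0.804 and 0.71 CPM in control against 2.08, 2.52, 2.73 and 3.04 CPM in heat (2.11 ± 0.33, edgeR adjusted p = 3.8e-05). It was the called member of 2 tested disease resistance genes at the ends, and the other (TraesCS5A01G024600) had 0.12 ± 0.20 (edgeR adjusted p = 0.68). The remaining 5 of 7 listed were at most at 0.299 CPM and were not tested. A gene with an F-box and leucine-rich repeats on 5B (TraesCS5B01G044900), of the kind that selects proteins for ubiquitination, rose from 1.28 ± 0.483 to 2.72 ± 0.438 CPM (1.07 ± 0.31, edgeR adjusted p = 0.0092). Both tested F-box genes at the ends were called higher, as were 16.8% of all tested genes. In the interior 2 of 10 tested F-box genes were higher and 1 lower, with a median of -0.34.

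Of the 10 described genes named as the highest calls at 0 DAT, the other 5 lost the call without 1 library or another. The second F-box gene was not among those 10. Hydroxypyruvate reductase on 2A (TraesCS2A01G035000), a photorespiratory enzyme, rose by 0.71 ± 0.24 (edgeR adjusted p = 0.023), a call that ended on leaving out heat replicate 2 (0.097) or control replicate 4 (0.054). A gene with an RNA-binding CRM domain on 3D (TraesCS3D01G505800), a domain known in plants from the splicing of organelle introns, rose by 1.08 ± 0.36 (edgeR adjusted p = 0.024), which ended on leaving out heat replicate 1 (0.084) or control replicate 3 (0.089). A cytochrome b561 and DOMON gene on 4A (TraesCS4A01G044400), of a class that moves electrons across membranes, rose by 1.69 ± 0.57 (edgeR adjusted p = 0.025), which ended on leaving out heat replicate 2 (0.06) or control replicate 1 (0.075) or 4 (0.061). A rhodanese-related sulfurtransferase on 6B (TraesCS6B01G011300) rose by 1.82 ± 0.58 (edgeR adjusted p = 0.018), which ended on leaving out heat replicate 1 (0.082) or control replicate 1 (0.066), 3 (0.065) or 4 (0.054). A nuclear factor Y subunit on 5A (TraesCS5A01G029900), part of a CCAAT-binding transcription factor, rose by 1.19 ± 0.46 (edgeR adjusted p = 0.047). It did not pass on leaving out heat replicate 1 (0.069), 2 (0.11) or 4 (0.091) or control replicate 1 (0.11), 3 (0.11) or 4 (0.1).

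**Figure D5:**
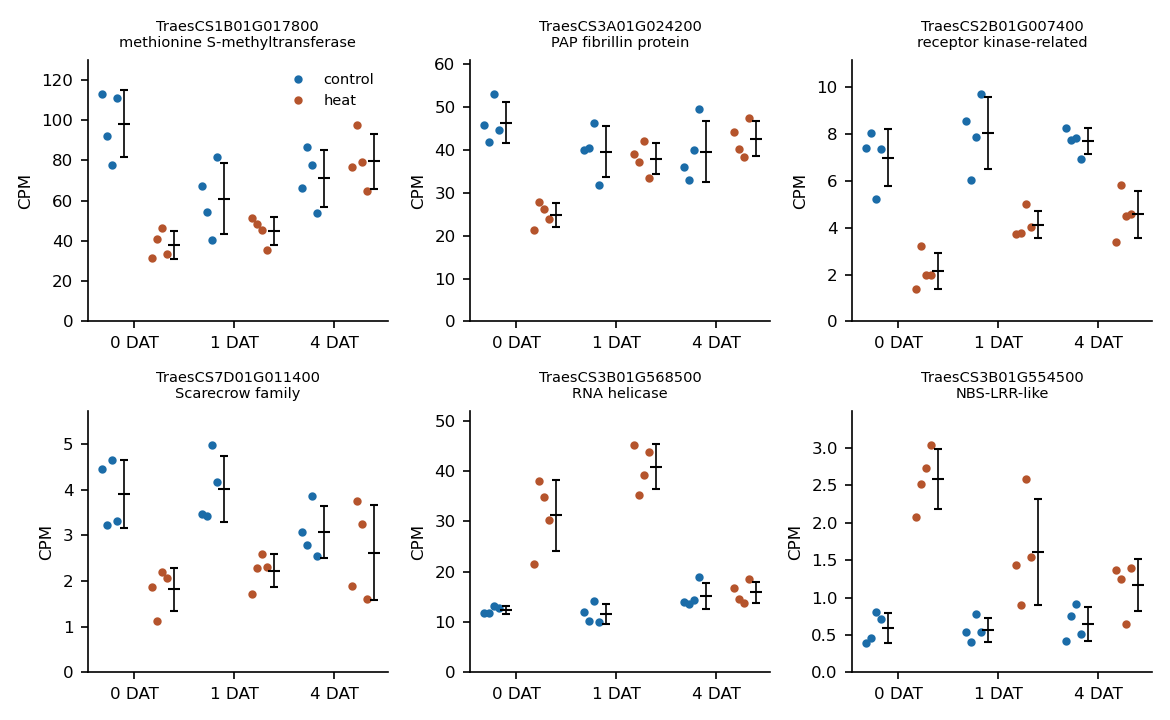
CPM of 6 genes at the chromosome ends in each library, with control in blue and heat in brown on each day and with mean and SD (n = 4) beside the points. The first 4 genes are lower and the last 2 higher in heat at 0 DAT; for the PAP fibrillin gene the points lie at 41.9 to 53 CPM in control against 21.4 to 27.8 CPM in heat.

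Several families were hardly measured in leaf. Of 9 mTERF genes at the ends, 3 were tested and 0 called at any time, with log2 fold changes of 0.17 ± 0.37 (TraesCS6A01G021400), 0.18 ± 0.32 (TraesCS6B01G029100) and -0.17 ± 0.26 (TraesCS6D01G023400) at 0 DAT and edgeR adjusted p of 0.76, 0.7 and 0.66. The interior had 13 mTERF genes, of which 6 were tested and 1 rose. Of 4 pentatricopeptide repeat genes, which act on organelle RNA, and 3 calcium-binding genes at the ends, 0 were tested, and the highest means were 0.596 and 0.384 CPM. Not detected as changed therefore means not measurable at this depth for most of these genes. Of 18 transcription factors at the ends, the Scarecrow genes included, 9 were tested, with 1 higher and 2 lower at 0 DAT. All 4 translation and RNA genes were tested, with 2 higher, and all 4 redox genes, of which edgeR's test called 0 at 0 DAT. In the interior 4 of 16 tested translation and RNA genes were higher and 0 lower, and of 13 redox genes 2 were higher and 6 lower. Of all tested genes 16.8% were higher and 18.0% lower. Of 3 tested cell wall and sugar genes at the ends 1 fell, the enolase gene above. In the interior 5 of 9 tested genes of this list were higher and 1 lower.

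Of genes without a description, the most changed at 0 DAT lie near each other on 3A and at the last ends of 6A and 7D. TraesCS3A01G034500 had 1 count over the 4 control libraries and 7477 counts over the 4 heat libraries, at 177, 95.2, 70.8 and 75.1 CPM (edgeR adjusted p = 3e-10). Scaled for library size this is a ratio of 5324, with a 95% exact interval of 956 to 210290 that covers counting error only. TraesCS3A01G033900, 6 ranks away, had 0 counts in the 4 control libraries and 81.2, 37.9, 43.6 and 21.2 CPM in heat, at least 789-fold higher against a floor of 3 counts over the control group (edgeR adjusted p = 2.7e-08). TraesCS7D01G519300 had 8.02, 7.01, 7 and 8.52 CPM in control against 0 to 0.126 CPM in heat (log2 fold change -6.63 ± 0.47, edgeR adjusted p = 9.4e-10). TraesCS6A01G403200 had 2.95 to 14.5 CPM in control and 2 counts over the 4 heat libraries (edgeR adjusted p = 5e-06), a ratio of 255 with an interval of 70.6 to 2105. For the 4 genes the groups did not overlap, which the naming rule required. Of their values above 0, 63.2% (TraesCS3A01G034500), 88.2% (TraesCS3A01G033900), 87.0% (TraesCS7D01G519300) and 5.0% (TraesCS6A01G403200) were not whole. Where this share is high, the values of single copies are uncertain.

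At 1 DAT the ends still had more lower than higher calls, while the interior had more higher calls. Of the genes at the ends 777 (10.8%) were lower and 654 (9.08%) higher, against 8.87% and 10.9% in the interior and 9.17% and 10.7% of all tested genes. The share called lower was above that of the interior on 20 of 21 chromosomes. The order of the 2 counts turned without heat replicate 4 (551 lower, 569 higher), without the 4 libraries rich in TraesCS1A01G000100 (623 and 626) and when the fit held no other day than 1 DAT (412 and 443), and the share called lower stayed above that of the interior in each of these. Scaled to total counts 309 genes at the ends were lower and 528 higher, and the share called lower was then 4.29% at the ends and 3.06% in the interior. Of the genes lower at 0 DAT 452 were lower at 1 DAT too, which is 30.3% of the 0 DAT list and 58.2% of the 1 DAT list at the ends. In the interior the same shares were 27.0% and 52.9%. Of the genes higher at 0 DAT 326 were higher at 1 DAT (30.0% and 49.9%). The opposite direction at 1 DAT was called for 29 of the genes that rose (2.67%) and 27 of those that fell (1.81%). In the interior the same shares were 2.23% and 2.54%. The 2 days have separate controls.

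Of the 66 tested genes at the ends with a description, 7 were lower and 3 higher at 1 DAT. Beside them, 9.17% of all tested genes were lower and 10.7% higher. Of the 7, 6 had at least 1 CPM in control. The RNA helicase on 3B (TraesCS3B01G568500) had 12, 10.2, 14.2 and 10.1 CPM in control against 45.2, 35.3, 39.3 and 43.8 CPM in heat (1.82 ± 0.17, edgeR adjusted p = 1.8e-07). The NBS-LRR-like gene (TraesCS3B01G554500) was at 1.46 ± 0.36 (edgeR adjusted p = 0.0066), and the receptor kinase-related gene on 2B (TraesCS2B01G007400) at -0.98 ± 0.21 (edgeR adjusted p = 0.0024). For these 3 the heat and control libraries did not overlap on either day. An S-acyltransferase on 2B (TraesCS2B01G585200), which attaches fatty acids to proteins, was even at 0 DAT (0.06 ± 0.15, edgeR adjusted p = 0.79). At 1 DAT it had 4.69, 3.73, 3.8 and 4.45 CPM in control against 2.77, 2.79, 1.85 and 2.14 CPM in heat (-0.78 ± 0.16, edgeR adjusted p = 0.0016, and 0.078 when scaled to total counts). An enhancer of polycomb-like gene on 6B (TraesCS6B01G005300), in yeast part of a histone acetyltransferase, fell from 12.1 ± 2.11 to 8.50 ± 1.06 CPM (-0.50 ± 0.13, edgeR adjusted p = 0.008). That call ended when scaled to total counts (0.29) and with only the libraries of 1 DAT (0.099). A glutaredoxin on 5B (TraesCS5B01G048900), which reduces disulfide bonds, was at -1.39 ± 0.41 (edgeR adjusted p = 0.019), which ended on leaving out heat replicate 2 (0.055) or 4 (0.064) or control replicate 2 (0.053).

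The Scarecrow gene on 7D (TraesCS7D01G011400) was called lower at 1 DAT too, with 3.43 to 4.98 CPM in control against 1.72 to 2.59 CPM in heat (-0.86 ± 0.25, edgeR adjusted p = 0.019), which ended on leaving out heat replicate 1 (0.068) or control replicate 3 (0.061), and when scaled to total counts (0.14). The 4A copy (TraesCS4A01G482000) was at -0.84 ± 0.30 (edgeR adjusted p = 0.049). It did not pass with the replicate number as a block (0.063), when scaled to total counts (0.18), nor on leaving out heat replicate 1 (0.12), 2 (0.12) or 3 (0.068) or control replicate 1 (0.14), 2 (0.07) or 4 (0.098). ROOT PRIMORDIUM DEFECTIVE 1 (TraesCS5B01G040600), lower at 0 DAT, was higher at 1 DAT, with 2.85 to 5.38 CPM in control against 4.67 to 6.75 CPM in heat (0.63 ± 0.20, edgeR adjusted p = 0.024). It did not pass on leaving out heat replicate 3 (0.054) or 4 (0.078) or control replicate 2 (0.08) or 4 (0.083). Of the undescribed genes, TraesCS3A01G034500 was at 1.85 to 13.8 CPM in heat against at most 0.403 CPM in control (edgeR adjusted p = 1.4e-05). TraesCS7D01G519300 was at 0.667 to 2.04 CPM against 2.62 to 5.49 CPM in control (edgeR adjusted p = 0.00053).

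At 4 DAT few genes were called. At the ends 31 were lower (0.430%) and 13 higher (0.180%), against 0.274% and 0.158% of all tested genes and 0.232% and 0.154% in the interior. None of the 66 described genes was among them by edgeR's quasi-likelihood test. The 44 calls depended on the libraries. They became 21 and 14 without control replicates 1 and 2, and 8, 12, 12 and 17 without heat replicates 1, 2, 3 and 4. Without the 4 libraries rich in TraesCS1A01G000100 there were 3. The undescribed gene TraesCS6A01G403200 remained lower, with 1.26, 9.76, 1.47 and 6.73 CPM in control against 0 to 0.421 CPM in heat (-4.07 ± 0.86, edgeR adjusted p = 0.035). With the replicate number as a block its adjusted p was 0.062, and it was 0.063 to 0.11 without control replicate 2 or 4 or any 1 heat library. The receptor kinase-related gene on 2B (TraesCS2B01G007400) had 6.93 to 8.27 CPM in control against 3.37 to 5.84 CPM in heat, which did not overlap and did not pass (edgeR adjusted p = 0.13).

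The heat effect differed between days for 805 genes at the ends when 1 DAT was set against 0 DAT, and for 1131 when 4 DAT was. These differences share the 0 DAT libraries, as do the effects at 0 DAT above. Between 1 and 0 DAT 504 genes (6.995%) shifted up and 301 (4.18%) down, against 6.48% and 4.40% of all tested genes. Between 4 and 0 DAT 708 (9.83%) shifted up and 423 (5.87%) down, against 8.62% and 6.62%. Scaled to total counts these counts became 162 up and 404 down, and 199 up and 984 down. Methionine S-methyltransferase (TraesCS1B01G017800), at -1.37 at 0 DAT, was at -0.44 ± 0.20 at 1 DAT and 0.16 ± 0.20 at 4 DAT. Its shift by 4 DAT was 1.53 ± 0.29 (edgeR adjusted p = 0.001). The shift by 1 DAT was 0.93 ± 0.29 (edgeR adjusted p = 0.038, and 0.051 with the replicate number as a block), and it ended without any 1 of 10 of the 16 libraries of these days, at an adjusted p of up to 0.082. The 3A PAP fibrillin gene (TraesCS3A01G024200) shifted by 0.83 ± 0.20 by 1 DAT and 1.00 ± 0.20 by 4 DAT (edgeR adjusted p = 0.0087 and 0.0017). At 1 DAT it had 31.9 to 46.3 CPM in control against 33.4 to 42 CPM in heat, and the groups overlapped. The 3D copy (TraesCS3D01G022000) shifted by 0.87 ± 0.24 by 4 DAT (edgeR adjusted p = 0.019, and 0.051 without control 0 DAT replicate 3).

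Enolase (TraesCS5D01G019800) had 123 to 149 CPM in heat against 70.9 to 115 CPM in control at 1 DAT. That difference did not pass (0.44 ± 0.16, edgeR adjusted p = 0.058), and its call at 0 DAT ended on leaving out single libraries, as given above. The shift of its heat effect from 0 to 1 DAT was 0.88 ± 0.23 (edgeR adjusted p = 0.015). ROOT PRIMORDIUM DEFECTIVE 1 (TraesCS5B01G040600) shifted by 1.20 ± 0.27 by 1 DAT (edgeR adjusted p = 0.0057). Its shift by 4 DAT was 0.87 ± 0.27 (edgeR adjusted p = 0.033, and 0.058 with the replicate number as a block), and it ended without any 1 of 11 of the 16 libraries, at up to 0.076. The S-acyltransferase (TraesCS2B01G585200) shifted down by 1 DAT (-0.84 ± 0.22, edgeR adjusted p = 0.015). The RNA helicase (TraesCS3B01G568500) had 13.6 to 19 CPM in control against 13.8 to 18.6 CPM in heat at 4 DAT, a shift of -1.27 ± 0.23 from 0 DAT (edgeR adjusted p = 0.00081). An RNA-binding protein gene on 4B (TraesCS4B01G020300) shifted by -1.77 ± 0.58 by 4 DAT (edgeR adjusted p = 0.04), with 16.2 to 63.6 CPM in control against 8.96 to 23.2 CPM in heat on that day. That call ended without any 1 of 11 of the 16 libraries, at an adjusted p of up to 0.12. The receptor kinase-related gene on 2B (TraesCS2B01G007400) shifted by 0.93 ± 0.31 (edgeR adjusted p = 0.04), which ended without any 1 of 13 of the 16 libraries (up to 0.098). Scaled to total counts, the shifts of the methyltransferase, both PAP fibrillin genes, enolase, ROOT PRIMORDIUM DEFECTIVE 1 and the 2B kinase did not pass.

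Non-whole values were less common among genes at the ends than in the interior. Reads divided among copies and reads divided among transcripts of 1 gene were not separated. Of the tested genes 75.2% at the ends and 87.2% in the interior had non-whole values in over 50% of their entries, and 12.1% and 16.7% of all genes had more than 1 transcript in the table. With such genes left out, 366 genes at the ends (20.5%) were lower and 282 (15.8%) higher at 0 DAT, while 12.2% of the interior genes that remained were lower and 21.02% higher.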

How the data were processed

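RNA-seq was analysed in 24 wheat leaf libraries, grouped by their labels. The values the authors deposited are estimated counts of reads for each transcript. For these the submitters' processing notes list Trimmomatic and kallisto, with no version, and the transcript index was not given in the sources used here. Above 0, 73.6% of the deposited values were not whole. The 137056 transcripts were summed to 110790 genes and rounded. Total counts were 5403461 to 16112270 per library, and correlations of log2 CPM between replicates 0.884 to 0.980. Positions are ranks of ID numbers, because the RefSeq gene table at hand (IWGSC CS RefSeq v2.1) matched 0 IDs.

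Genes were kept by filterByExpr (minimum count 10, minimum total 15), scaled by TMM and fitted with 6 group means over all 24 libraries in edgeR 4.0.16 (R 4.3.3, limma 3.58.1). The quasi-likelihood test was two-sided, and its p-values were adjusted by Benjamini-Hochberg over the 47489 genes tested. TMM factors were 1.24 to 1.56 in heat at 0 DAT and 0.657 to 1.26 elsewhere. CPM is relative to the scaled total, and SE is the absolute log2 fold change over the square root of F. DESeq2 1.42.0 was an alternative. The scripts were tested on simulated data.

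The members and lists were chosen with earlier results of these data known. Described genes were named as the 10 highest and 10 lowest calls per day with at least 1 CPM in the higher group, the 5 highest and 5 lowest for each difference between days, and all tested members of the mTERF, pentatricopeptide repeat, disease resistance and Scarecrow lists. TraesCS1A01G000100 was added, and undescribed genes as the 2 highest and 2 lowest calls at 0 DAT with at least 5 CPM and no overlap. Each plant was sampled on all 3 days per the study's methods. Deviations of libraries with the same number correlated at -0.063 to 0.186 between heat and control at 0 DAT, 0.168 to 0.511 at 1 DAT and 0.313 to 0.496 at 4 DAT, so a block is given beside results of the latter days where it changed a call. On single days the block was the replicate number. For differences between days it was the pool of plants, which is treatment and replicate number together. Deviations of libraries of the same treatment and number correlated at -0.554 to 0.423 between days. That the RNA-seq libraries come from the described pools is inferred from the numbers in their labels.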

Additional observations from a re-analysis of the deposited data

Results flagged for a closer look

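In groups of 4 libraries, 204 tests for an outlying library (Dixon's) marked 18 values, and chance alone marks about 1 in 20. Within its own group, 1 control library of 0 DAT had a low share of counts at the chromosome ends, at 12.3% with TraesCS1A01G000100 and at 12.3% without it. Within heat at 1 DAT, replicate 3 had a high share, at 18.1%. The share of end genes detected at an equal total count was low in control 4 DAT replicate 4 (40.5%), whose TMM factor was 0.750. TraesCS1A01G000100 stood out at 100067 CPM in heat at 1 DAT and at 40434 CPM in control at 4 DAT. Among genes that responded to heat, single high libraries were TraesCS1B01G451600 at 2.82 CPM in heat at 0 DAT and TraesCS3B01G568500 at 19.0 CPM in control at 4 DAT. Others were TraesCS3D01G002200 at 2.81 CPM in control at 1 DAT, TraesCS3D01G022000 at 61.7 CPM in control at 4 DAT and TraesCS5A01G029900 at 0.738 CPM in control at 0 DAT. TraesCS5B01G044900 had 1.99 CPM in heat at 1 DAT, TraesCS6B01G011300 2.58 CPM in control at 0 DAT and TraesCS5D01G019800 105 CPM in control at 0 DAT. TraesCS3A01G033900 (0.306 CPM, control 4 DAT) and TraesCS3A01G034500 (0.118 CPM, control 0 DAT) were each above 0 in that library alone of their group. Low libraries were TraesCS2B01G585200 at 3.63 CPM in heat at 0 DAT and TraesCS5D01G019800 at 70.9 CPM in control at 1 DAT.

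The heat effect differed between days, by edgeR's test of the difference, for 12 named genes. Relative to 0 DAT the effect at 1 DAT was higher for TraesCS1B01G017800 (0.93), TraesCS3A01G024200 (0.83), TraesCS5B01G040600 (1.20), TraesCS5D01G019800 (0.88) and TraesCS7D01G519300 (4.75). It was lower for TraesCS2B01G585200 (-0.84) and TraesCS3A01G034500 (-6.81). At 4 DAT it was higher for TraesCS1B01G017800 (1.53), TraesCS2B01G007400 (0.93), TraesCS3A01G024200 (1.00), TraesCS3D01G022000 (0.87), TraesCS5B01G040600 (0.87) and TraesCS7D01G519300 (5.17). It was lower for TraesCS3A01G033900 (-10.85), TraesCS3A01G034500 (-12.33), TraesCS3B01G568500 (-1.27) and TraesCS4B01G020300 (-1.77). Fitted values of genes with a group near 0 counts depend on the prior count and are no bounds. For TraesCS3A01G033900 the difference (edgeR adjusted p = 0.032) was lost without control 4 DAT replicate 4 and with the replicate number as a block (0.061). For TraesCS5B01G040600 at 4 against 0 DAT (edgeR adjusted p = 0.033) it was lost in 15 of 24 alternatives, among them the block by pool of plants (0.058) and total counts (0.25, adjusted p = 0.59).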

How the results depend on the processing

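The number of genes at the ends called at 0 DAT (2579) stayed within 1.5 times under every alternative that kept the set of genes. At 1 DAT it went from 1431 to 837 when scaled to total counts and to 855 with only the libraries of that day. At 4 DAT it went from 44 to 105 with DESeq2, 117 with edgeR's likelihood ratio test, 26 when scaled to total counts, 20 with transcripts tested singly, 4 with only the libraries of that day and 3 without the 4 libraries rich in TraesCS1A01G000100. Without those libraries the effect differed between 4 and 0 DAT for 740 genes in place of 1131. Leaving out 1 library gave 2184 to 2378 genes at 0 DAT, 1100 to 1418 at 1 DAT, 8 to 46 at 4 DAT, 585 to 906 for 1 against 0 DAT and 904 to 1122 for 4 against 0 DAT. Taking 5% of ranks at each end gave 1279, 660, 18, 388 and 557 genes in the same order, and 20% gave 5442, 3070, 83, 1706 and 2390, since the set itself changed. Leaving out genes with over 50% non-whole values gave 648, 290, 19, 149 and 234, since fewer genes were tested. With a block the counts were 2494, 1318, 32, 587 and 866. The block was the replicate number on single days and the pool of plants for differences between days.

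The excess of the share called lower at the ends over the interior was 3.33 points at 0 DAT and 1.92 at 1 DAT, and kept its sign under all alternatives run, but not its size. It was 1.19 and 0.584 with no filter on low counts and 8.31 and 3.48 without genes with over 50% non-whole values. At 1 DAT it was 1.23 when scaled to total counts, 1.07 for 5% of ranks, and 1.12 and 1.23 without control replicates 1 and 2. Scaling to total counts moved the share of higher among all calls by 36.0, 17.4, -18.0, -34.0 and -45.8 points in the 5 comparisons. Under it, enolase (TraesCS5D01G019800) turned to 0.07 at 0 DAT. Of 1048 pairs of a named call and an alternative, 176 lost the call, and 23 of 57 named calls were never lost. The causes were not tested. At a mean near 1 CPM a gene had few counts in the smallest libraries, which limits what could be called.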
